A study of Mus musculus with 12 samples.

Results

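The genes described here encode chains of the cytokine receptors that share the common gamma chain, together with the chains of the IL-12 and IL-18 receptors. They were chosen by symbol: Il7r, Il2ra, Il2rb, Il2rg, Il15ra, Il21r, Il12rb1, Il12rb2, Il18r1 and Il18rap. All 10 were found among the 14004 genes of the expression table, and all 10 passed the filter on low values (a minimum normalised value of 10, reached in 3 or more libraries), as did 13058 genes in all. RNA-seq was performed on mouse iNKT1 cells, a CD1d-restricted T cell subset that produces interferon gamma, sorted as CD1d-tetramer-positive and YFP-positive. The cKO genotype was Tbx21Cre; Rosa26-YFP+; Ets1F/F, and the control genotype was Tbx21Cre; Rosa26-YFP+, so that cells of both genotypes carried the Cre and the reporter. Tbx21 encodes T-bet, and the Cre driven by it acts only once a cell has switched Tbx21 on. There were 4 groups of 3 libraries each: cKO thymus, control thymus, cKO liver and control liver. The sources used here give no age of the mice. The series calls the replicates independent, but no label ties them to separate mice; the p-values therefore reflect sample-to-sample spread that may be technical.

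Cytokines of the common gamma family signal through Il2rg, which pairs with a private or shared partner: Il7r for IL-7, Il2rb for IL-2 and IL-15, and Il21r for IL-21. Il2ra and Il15ra raise the affinity for IL-2 and IL-15, and Il2rg binds the kinase Jak3. The IL-12 receptor consists of Il12rb1 and Il12rb2 and acts mainly through Stat4, whereas the IL-18 receptor consists of Il18r1 and Il18rap and acts through MyD88. In iNKT1 cells IL-15 is known as a survival factor, and IL-12 with IL-18 can induce interferon gamma without antigen.

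Ets1, the targeted gene, had normalised values of 11817.2, 7069.2 and 5787.8 in cKO thymus, against 23692, 28050.9 and 19492.7 in control thymus. In cKO liver it had 3594.3, 4425.2 and 5787.1, against 18772.7, 18528.3 and 15910.2 in control liver. Ets1 was lower in every cKO library than in every control library of the same tissue, and since these values cover the whole gene, reads from exons outside the floxed part are included. All 10 iNKT1 markers were measured in each group, among them Cd3e and Zbtb16. With limma, 0 of them were called between genotypes in thymus and 1 in liver, where 0.636% and 0.505% of all genes tested were. At an unadjusted limma p under 0.05 there were 2 in each tissue, beside 13.2% and 6.92% of all genes. The list holds Il2rb, one of the receptor genes described here. The marker called in liver, Xcl1, had 592, 494.4 and 998.8 in cKO liver, against 4054, 3230.4 and 4420 in control liver (limma adjusted p = 0.0062). Tbx21 had 6320.7, 4830.6 and 4267.3 in cKO liver, against 2353.2, 3512.7 and 2320.6 in control liver (limma adjusted p = 0.73). In thymus Tbx21 overlapped between genotypes. The summed NK cell markers (6 of 7 measured) ran over 2733.3 to 5118.1 in cKO thymus, against 1094.2 to 1845.2 in control thymus. Of these, Itga2 had 2492.4, 1737.2 and 2481.7 in cKO thymus, against 4.506, 80.98 and 1024.1 in control thymus; without it the sums overlapped, at 879 to 2625.7 in cKO thymus and 821.1 to 1669.7 in control thymus, and Ncr1 was near 0 in all thymus libraries. The summed hepatocyte markers (4 of 5 measured, Alb above all) ran over 713.7 to 1478.4 in cKO liver and 1250.8 to 1649.7 in control liver, and stayed at or below 448.5 in the thymus libraries. The recovered reads (M stands for mega) were 18.5 to 43.4 M in 10 libraries, 3.21 M in cKO liver replicate 2 and 3.87 M in control liver replicate 3. Control thymus replicates 1 and 2 stood apart in having 3528 and 2824 genes without a read, against 966 to 2223 in the other libraries.

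Il7r, the specific chain of the IL-7 receptor, was the receptor gene with the clearest change. In thymus its normalised values were 10337, 14944.9 and 8534 in cKO cells, against 39747.5, 50117.7 and 27830.7 in control cells. The highest cKO thymus library lay well below the lowest control thymus library. The log2 fold change was -1.80 ± 0.32 (SE), a 3.48-fold lower level (limma adjusted p = 0.012, n = 3 each). This was -2.03 relative to the median of all genes tested, which itself lay at 0.236 in thymus. The call was lost without control thymus replicate 2 (log2 fold change -1.6, limma adjusted p = 0.058), without cKO thymus replicate 1 (-1.76, 0.064) and without cKO thymus replicate 3 (-1.62, 0.079). It was also lost without control thymus replicates 1 and 2 together (-1.34, 0.47), with sample weights (-1.72, 0.11) and with the thymus groups fitted alone (-1.80, 0.59).

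In liver, Il7r had values of 3512.5, 2892.9 and 2713.1 in cKO cells, against 4130.5, 4673.9 and 2108.8 in control cells. The groups overlapped, and the log2 fold change was -0.19 ± 0.32, with a 95% interval of -0.86 to 0.49 (limma adjusted p = 1). Over both tissues Il7r fell by 0.99 on the log2 scale in cKO cells (SE 0.23, limma adjusted p = 0.024). That call was lost without any 1 of 6 libraries, namely cKO thymus replicates 1 and 3, cKO liver replicates 2 and 3 and control liver replicates 1 and 2 (log2 fold changes of -0.98 to -0.88, limma adjusted p of 0.058 to 0.088), and without control thymus replicates 1 and 2 together (-0.77, 0.22). The genotype effect in liver minus that in thymus was 1.61 ± 0.45, which had an unadjusted limma p of 0.0022 and did not pass after adjustment (adjusted p = 0.77).

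Il7r lies on chromosome 15 (GENCODE, GRCm38 9505788 to 9530176, minus strand). Its RefSeq start, at 9529876, is 300 bases inside that outer limit, which 1 GENCODE transcript not annotated as coding sets; the window shown lies in the first intron of that transcript and before every coding one. The 140 bases before its RefSeq transcription start are shown with those of Il18r1 and Il18rap, both on chromosome 1, because these 3 genes had the tissue differences in the same direction that are described below. Capitals mark the ETS core GGAA on either strand, so that TTCC is its reverse. The windows (RefSeq, GRCm38.p6, each written 5′ to 3′ on the strand of the gene) are chr15:9529877-9530016, chr1:40465412-40465551 and chr1:40515222-40515361.
Il7r: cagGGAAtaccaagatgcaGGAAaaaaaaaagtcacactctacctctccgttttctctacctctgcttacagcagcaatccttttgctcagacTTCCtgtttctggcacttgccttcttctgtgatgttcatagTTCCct
Il18r1: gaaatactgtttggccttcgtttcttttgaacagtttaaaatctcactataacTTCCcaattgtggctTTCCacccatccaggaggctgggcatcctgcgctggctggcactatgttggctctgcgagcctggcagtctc
Il18rap: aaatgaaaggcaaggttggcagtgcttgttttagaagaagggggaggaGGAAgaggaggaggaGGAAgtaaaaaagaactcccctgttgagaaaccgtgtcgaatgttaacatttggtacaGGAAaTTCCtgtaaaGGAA

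The windows held 4 ETS cores for Il7r, 2 for Il18r1 and 5 for Il18rap. A GGAA core is common: 93.4% of 32851 RefSeq windows of 250 bases before a start held at least 1 on either strand. The longer match AGGAAG (both strands, containing the core) stood 48 bases before the Il7r start, and 29.5% of windows held it. Of the 8 receptor genes with a window in the table, 7 held the core and 6 the longer match within 250 bases of at least 1 of their RefSeq starts, the 6 including Il18r1 only through its start farthest downstream; at the first start of each gene the longer match was held by 5. These motifs were chosen after the sequences were seen, and a match of letters is no measure of binding.

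**Figure D1:**
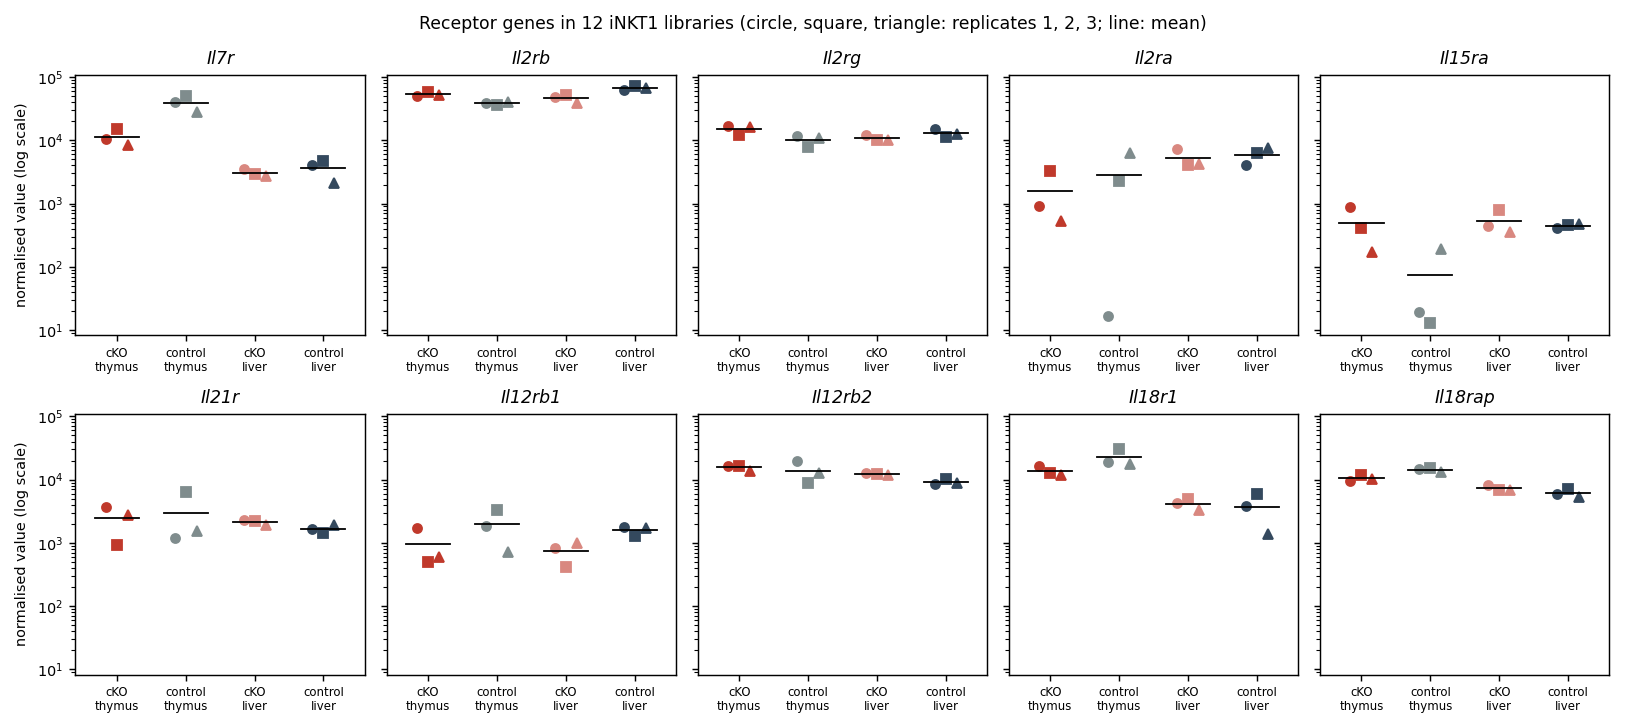
Normalised values of the 10 receptor genes (log scale) in the 3 libraries of each group, with the group mean as a line. Il7r in cKO thymus lies between 8534 and 14944.9, below all control thymus libraries and above all liver libraries, and Il2ra and Il15ra are the genes whose control thymus libraries spread most.

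Il2rb, the signalling chain shared by the IL-2 and IL-15 receptors, lay on opposite sides of the control values in the tissues, without passing the test in either. Its thymus values were 50257.1, 58356.4 and 51378.2 in cKO cells, against 38659, 36384.9 and 40796.7 in control cells. Its liver values were 48001.9, 51428.4 and 38766.9 in cKO cells, against 61549.2, 71229.7 and 67939.9 in control cells. In neither tissue did the genotypes overlap, with cKO cells above control cells in thymus and below them in liver. The log2 fold changes were 0.46 ± 0.15 in thymus (limma adjusted p = 0.17) and -0.55 ± 0.15 in liver (limma adjusted p = 0.13), and neither passed the test. Their difference, liver minus thymus, was -1.01 ± 0.21 with an unadjusted limma p of 0.00015, the 6th smallest of all genes, but an adjusted p of 0.33. Relative to the median of all genes tested, Il2rb was at 0.23 in thymus and -0.57 in liver, and the difference was -0.81. Over the 26 alternative settings the log2 fold change of Il2rb in thymus ran from 0.17 to 0.51. The summed NK cell markers overlapped between genotypes in liver, at 2123.2 to 3121.6 in cKO liver and 655.5 to 3118.8 in control liver. Without Itga2 the liver sums also overlapped, at 208.3 to 2296.6 in cKO liver and 132 to 1274.5 in control liver. In thymus the full sums differed through Itga2, as given above, and the part of the NK cell markers in the Il2rb values was not tested.

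Il2rg, the common gamma chain itself, had thymus values of 17060.7, 12135 and 15976.1 in cKO cells, against 11753, 7813.6 and 10915.2 in control cells. The groups did not overlap, but the log2 fold change of 0.57 ± 0.23, or 0.34 relative to the median of all genes tested, did not pass (limma adjusted p = 0.29). In liver it was -0.27 ± 0.23, with values of 12004.3, 10054.6 and 10161.2 in cKO cells, against 15015.4, 11232.5 and 12718.9 in control cells (limma adjusted p = 1). The genotype effect in liver minus that in thymus was -0.84 ± 0.33 for Il2rg (limma unadjusted p = 0.02, adjusted p = 0.91).

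The chains that raise affinity for IL-2 and IL-15 varied widely between control thymus libraries. Il2ra had 909.5, 3229.5 and 523.1 in cKO thymus, against 16.84, 2249.2 and 6197.1 in control thymus, where replicate 1 rested on 15 reads and replicate 3 on 4944. With such a spread the log2 fold change of 0.88 ± 1.32 says little (limma adjusted p = 0.82), and without control thymus replicate 1 it was -1.69 (limma adjusted p = 0.21). In liver Il2ra ranged over 4124.5 to 7311.9 in cKO cells and over 4035.7 to 7460.2 in control cells, with a log2 fold difference of -0.19 ± 1.32 (limma adjusted p = 1).

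Il15ra, which presents IL-15, was the receptor gene with the lowest values. It had 878.7, 416.8 and 168.7 in cKO thymus, against 19.08, 12.75 and 194.3 in control thymus, where replicates 1 and 2 held 17 and 11 reads. The groups overlapped through control thymus replicate 3, and the log2 fold change of 3.39 ± 1.09 did not pass (limma adjusted p = 0.17). Without that library Il15ra was called (log2 fold change 4.58, limma adjusted p = 0.017), so 1 library decided the call. The libraries that set the size of this difference are the 2 with the most genes without a read, and without both it was 1.02 (limma adjusted p = 0.85). In liver Il15ra had 440.2, 785.5 and 353 in cKO cells, against 410.6, 454 and 466.9 in control cells, with overlapping groups and a log2 ratio of 0.16 ± 1.09 (limma adjusted p = 1).

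Il21r, the specific chain of the IL-21 receptor, had 3665.7, 913.9 and 2721.9 in cKO thymus, against 1189.4, 6305.6 and 1526.8 in control thymus. The values crossed freely, and the log2 fold change was -0.11 ± 0.57 (limma adjusted p = 0.96). In liver Il21r was tighter, at 1924.4 to 2308.7 in cKO cells and 1441.8 to 1926.7 in control cells, giving a log2 ratio of 0.37 ± 0.57 (limma adjusted p = 1).

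In liver, the IL-12 receptor chain Il12rb1 was low and Il12rb2 was high in cKO cells, without passing the test. Il12rb1, the chain shared with the IL-23 receptor, had 822, 421.1 and 982.4 in cKO liver, against 1813.9, 1273.6 and 1719.9 in control liver. Il12rb2, the signalling chain specific to IL-12, had 12948.1, 12199.5 and 11775.7 in cKO liver, against 8467.2, 10218.1 and 8837 in control liver. Neither gene overlapped between the genotypes. The log2 fold changes were -1.18 ± 0.62 for Il12rb1 (limma adjusted p = 0.81) and 0.43 ± 0.25 for Il12rb2 (limma adjusted p = 0.88).

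In thymus, Il12rb1 had 1725.6, 507.4 and 604.1 in cKO cells, against 1836.3, 3339.5 and 719.5 in control cells, and the groups overlapped (log2 fold change -1.02 ± 0.62, limma adjusted p = 0.5). Over both tissues the log2 fold change of Il12rb1 was -1.10 ± 0.44 (limma unadjusted p = 0.022, adjusted p = 0.26). Il12rb2 had 16679.8, 16629.8 and 13821.6 in cKO thymus, against 19402.9, 8730.5 and 12823 in control thymus, again with overlap (0.27 ± 0.25, adjusted p = 0.68). Within a library, the ratio of Il12rb2 to Il12rb1 per kilobase of exon was 17, 31.3 and 13 in cKO liver, against 5.05, 8.68 and 5.56 in control liver. Every cKO liver library was thus above every control liver library in that ratio, whereas in thymus the ratios were 10.5, 35.5 and 24.8 in cKO cells and 11.4, 2.83 and 19.3 in control cells and overlapped.

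The IL-18 receptor chains were lower in cKO thymus without passing the test. Il18r1, the ligand-binding chain, had 16646, 12768.5 and 11962.5 in cKO thymus, against 19075.6, 30823.8 and 17915.8 in control thymus. Il18rap, the accessory chain, had 9501.4, 11808.8 and 10130.8 in cKO thymus, against 14636.3, 15468.6 and 13095 in control thymus. Neither gene overlapped between the genotypes in thymus. The log2 fold changes were -0.68 ± 0.39 for Il18r1 (limma adjusted p = 0.47) and -0.46 ± 0.23 for Il18rap (limma adjusted p = 0.39).

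In liver the IL-18 receptor chains overlapped between genotypes. Il18r1 had 4314.9, 4931.5 and 3315.9 in cKO liver, against 3762.5, 5889.2 and 1382 in control liver (log2 fold change 0.40 ± 0.39, limma adjusted p = 1). Il18rap had 8167, 6783.5 and 6938.3 in cKO liver, against 5873.9, 7002.3 and 5397.3 in control liver (0.26 ± 0.23, adjusted p = 1). The genotype effect in liver minus that in thymus was 1.08 ± 0.56 for Il18r1 (limma adjusted p = 0.93) and 0.72 ± 0.32 for Il18rap (limma adjusted p = 0.91).

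Of the 10 receptor genes, 1 was called in thymus, where 0.636% of all genes tested were, and 0 were called in liver, where 0.505% were. At an unadjusted limma p under 0.05 there were 4 receptor genes in thymus, where 13.2% of all genes tested were, and 1 in liver, where 6.92% were; edgeR and DESeq2 on recovered reads also called 0 of them in liver. Over both tissues 1 was called, against 2.27% of all genes. In thymus 5 of the 10 did not overlap between genotypes (Il2rb and Il2rg higher, Il7r, Il18r1 and Il18rap lower in cKO cells), where 14.5% of all genes did not overlap. In liver 3 of the 10 did not overlap (Il12rb2 higher, Il2rb and Il12rb1 lower in cKO cells), where 18.6% of all genes did not. The median log2 fold change of the 10 genes was 0.082 in thymus and -0.012 in liver, beside 0.236 and 0.025 over all genes tested. For the genotype effect in liver minus that in thymus, 0 receptor genes were called with limma (0 with edgeR and 0 with DESeq2), and 0.00766% of all genes were. At an unadjusted p under 0.05 there were 5 receptor genes for this difference, and 5.38% of all genes.

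Markers of other cells also moved with genotype. Myeloid markers (4 of 11 measured, mostly Itgam in cKO liver) summed to 643.3 to 730.5 in cKO liver, against 12.78 to 455.5 in control liver. Of 5 endothelial markers listed, 1 was measured, Pecam1, so its values alone do not show whether endothelial cells were present. Pecam1 had 1.16 to 87.96 in cKO liver, against 458.3 to 670.8 in control liver. In thymus it had 0.9226 to 68.46 in cKO cells, against 71.73 to 301.6 in control cells. The iNKT17 markers (5 of 8 measured) summed to 419.5 to 875.9 in cKO liver, against 984.4 to 7964.5 in control liver. The iNKT2 and thymocyte sums overlapped between genotypes in both tissues, but single genes on these lists were called. Izumo1r (iNKT2 list) had a log2 fold change of -7.77 ± 0.96 in liver (limma adjusted p = 0.00033). On the thymocyte list, Cd4 was at -3.27 ± 0.56 over both tissues (limma adjusted p = 0.0034). Ccr9 was at 3.61 ± 0.61 in thymus (limma adjusted p = 0.0085), in the opposite direction. The part of these markers in the genotype values of the receptor genes was not tested.

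**Figure D2:**
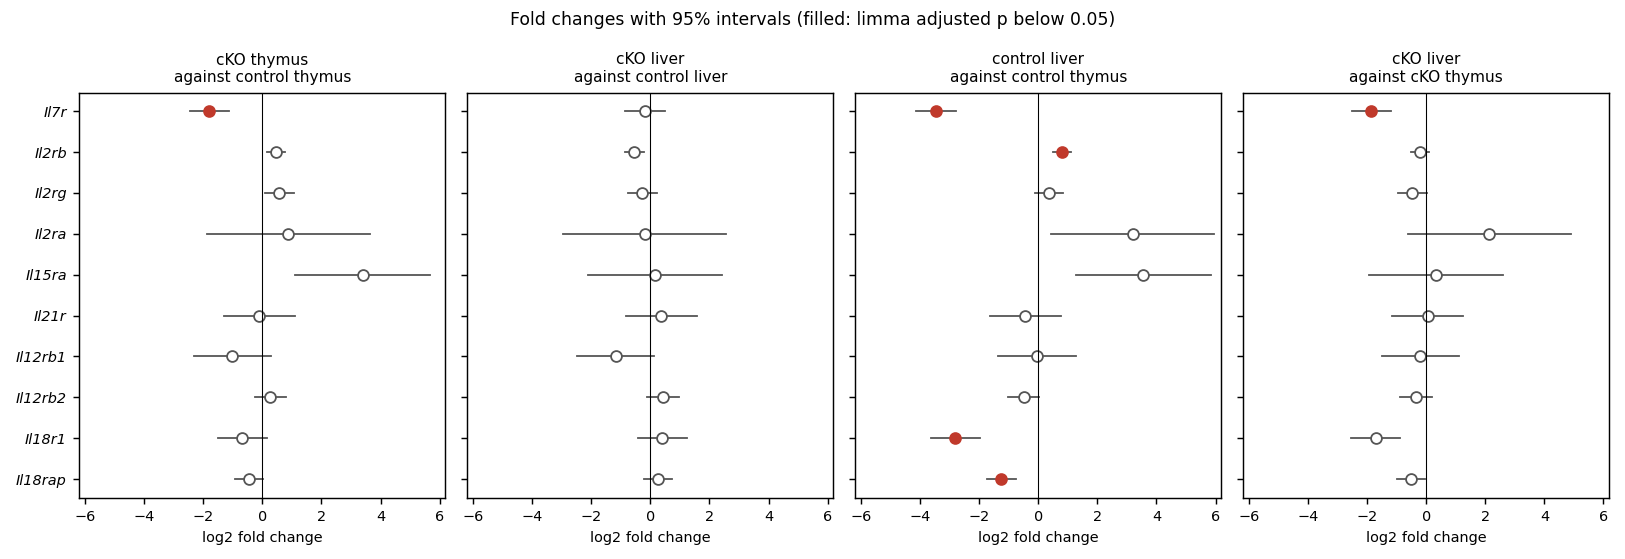
Log2 fold changes of the receptor genes with 95% intervals in both genotype comparisons and both tissue comparisons; filled points passed the limma test. Il7r is filled in 3 of the panels, and in cKO liver against control liver its interval of -0.86 to 0.49 includes 0.

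The largest differences of these genes lay between tissues. In control cells, Il7r had 4130.5, 4673.9 and 2108.8 in liver, against 39747.5, 50117.7 and 27830.7 in thymus. This was a log2 ratio of -3.47 ± 0.32, or 11.1-fold lower in liver (limma adjusted p = 1.2e-05), and it had the 2nd smallest p of all genes tested. It passed under all 26 alternative settings, with a highest adjusted p of 0.0029. In cKO cells, Il7r had 3512.5, 2892.9 and 2713.1 in liver, against 10337, 14944.9 and 8534 in thymus, giving a log2 ratio of -1.86 ± 0.32 or 3.63-fold (limma adjusted p = 0.02). That call was lost without cKO thymus replicate 1 or 2 or cKO liver replicate 2 or 3 (log2 fold changes of -1.90 to -1.64, limma adjusted p of 0.095 to 0.15), and without both libraries under 5 M reads (-1.83, 0.066). In bulk samples, fewer cells of a kind and less RNA per cell cannot be told apart.

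Both IL-18 receptor chains were also lower in control liver. Il18r1 had 3762.5, 5889.2 and 1382 in control liver, against 19075.6, 30823.8 and 17915.8 in control thymus, giving a log2 ratio of -2.81 ± 0.39 or 7-fold lower (limma adjusted p = 0.0012). Its call was lost only without control thymus replicates 1 and 2 together among the 26 settings (-2.52, limma adjusted p = 0.07). Il18rap had 5873.9, 7002.3 and 5397.3 in control liver, against 14636.3, 15468.6 and 13095 in control thymus, giving a log2 ratio of -1.25 ± 0.23 (limma adjusted p = 0.012). The Il18rap call was lost without control liver replicate 1 (-1.22, 0.057) or replicate 3 (-1.16, 0.085), without control thymus replicates 1 and 2 together (-1.11, 0.25), without both libraries under 5 M reads (-1.16, 0.15) and with the control groups fitted alone (-1.25, 0.13).

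In cKO cells the IL-18 receptor chains again did not overlap between tissues and were lower in liver. The log2 fold change, liver against thymus, was -1.72 ± 0.39 for Il18r1 (limma adjusted p = 0.082), which was called under 6 of the 26 alternative settings. It was -0.52 ± 0.23 for Il18rap (limma adjusted p = 0.59).

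Il2rb went the other way in control cells, with 61549.2, 71229.7 and 67939.9 in control liver, against 38659, 36384.9 and 40796.7 in control thymus. It rose by 0.79 ± 0.15 on the log2 scale in liver, a 1.73-fold higher level (limma adjusted p = 0.016). The call was lost without control thymus replicate 1 (0.79, 0.059) or control liver replicate 2 (0.75, 0.13) or replicate 3 (0.78, 0.089), after TMM rescaling (0.48, 0.21), with edgeR on recovered reads (0.79, 0.075), without control thymus replicates 1 and 2 together (0.71, 0.37), without both libraries under 5 M reads (0.78, 0.15) and with the control groups fitted alone (0.79, 0.14). In cKO cells the tissues overlapped for Il2rb, with a log2 fold change, liver against thymus, of -0.22 ± 0.15 (limma adjusted p = 0.84).

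Il2ra and Il15ra had large tissue differences that did not pass. In control cells, liver against thymus, the log2 fold changes were 3.20 ± 1.32 for Il2ra (limma adjusted p = 0.32) and 3.56 ± 1.09 for Il15ra (limma adjusted p = 0.17), with control thymus libraries of few reads as given above. Without control thymus replicate 3 Il15ra was called (4.74, limma adjusted p = 0.019) and Il2ra just passed (4.85, limma adjusted p = 0.05), and without control thymus replicates 1 and 2 together Il2ra was at -0.10 (limma adjusted p = 0.98). In cKO cells Il2ra did not overlap between tissues, at 4124.5 to 7311.9 in liver and 523.1 to 3229.5 in thymus (log2 fold change 2.13 ± 1.32, limma adjusted p = 0.79). Il12rb2 and Il2rg were both lower in every cKO liver library than in every cKO thymus library, by -0.35 ± 0.25 and -0.48 ± 0.23 on the log2 scale (limma adjusted p of 0.86 and 0.68).

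Of the 10 receptor genes, 4 were called in control liver against control thymus (Il2rb higher, Il7r, Il18r1 and Il18rap lower in liver; 3 with edgeR and 4 with DESeq2), where 0.605% of all genes tested were, and 1 in cKO liver against cKO thymus, where 0.222% were. Tissue groups did not overlap for 5 of the 10 in control cells (15.4% of all genes) and for 6 of the 10 in cKO cells (16.1% of all genes). The median log2 difference of the 10 genes was -0.247 in control cells and -0.283 in cKO cells, beside 0.28 and 0.088 over all genes. The tissue and genotype comparisons share libraries (the control thymus libraries enter both), so their values for a gene are not independent. Several marker sums moved with the tissue. Hepatocyte markers were higher in every liver library than in any thymus library, as given above. Thymocyte markers (7 of 9 measured) ran over 6914.9 to 15475.2 in cKO liver, against 2718.1 to 4407.6 in cKO thymus, and over 10602.6 to 11386 in control liver, against 2563.2 to 7462.1 in control thymus. Most of that sum was Ccr9 and Cd4, and Rag1, which defines immature thymocytes, was below 1 in all liver libraries. In thymus Rag1 had 0.02086, 0.02693 and 486.2 in control replicates 1, 2 and 3. It had 1.032, 2.789 and 163.2 in cKO thymus replicates 1, 2 and 3. Control thymus replicate 3 is also the thymus library with the highest Il2ra value, though not the highest of all libraries, and the one that decided the Il15ra call. Between cKO tissues the iNKT17 and myeloid markers, and between control tissues the endothelial (Pecam1 alone), B cell and iNKT1 markers (a list that holds Il2rb), were also higher in every liver library than in every thymus library. The B cell sums were 1.688 to 746.6 in control liver, against 0.08431 to 0.1764 in control thymus. Control liver replicate 2, the lowest, rested on 2 reads of Cd79a, so this separation lies near the floor. The NK cell sums overlapped between tissues in both genotypes. On that list, Ncr1 had 615.6, 13.7 and 131.4 in control liver and was near 0 in control thymus. Klra3 and Klra8 went the other way, lower in every control liver library than in every control thymus library. The part of all these markers in the tissue differences was not tested.

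The order of the levels per kilobase of exon placed Il2rb first in all 4 groups and Il15ra last. Il2rb had 12440.1 ± 1023.7 per kilobase in cKO thymus, 9007.1 ± 514.6 in control thymus, 10745.4 ± 1527.7 in cKO liver and 15606.8 ± 1148.2 in control liver (SD, n = 3 each). Il7r was the 2nd in control thymus, at 8413.5 ± 2391.7 per kilobase, and its libraries overlapped there with those of Il2rb. It stood 5th in cKO thymus (2417.3 ± 709), 7th in cKO liver (651.8 ± 89.94) and 6th in control liver (780.1 ± 289.9), where Il2rb, Il2rg and Il12rb2 held the first 3 places with no overlap between neighbours. In cKO thymus too, Il2rb, Il2rg and Il12rb2 came first without overlap, whereas in control thymus the 5 highest genes overlapped between neighbours.

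The ratio of Il7r to Il2rb per kilobase within a library does not depend on scaling between libraries. It was 0.189, 0.235 and 0.153 in cKO thymus, against 0.945, 1.27 and 0.627 in control thymus. In cKO liver it was 0.0673, 0.0517 and 0.0643, against 0.0617, 0.0603 and 0.0285 in control liver. The thymus genotypes were therefore separate in this ratio, the liver genotypes overlapped, and both thymus groups lay above all liver libraries. The ratio of Il18r1 to Il18rap was 0.741, 1.02 and 0.67 in cKO liver and 0.898, 1.18 and 0.359 in control liver, against 2.46, 1.52 and 1.66 in cKO thymus and 1.83, 2.79 and 1.92 in control thymus, so that every liver library was below every thymus library.

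**Figure D3:**
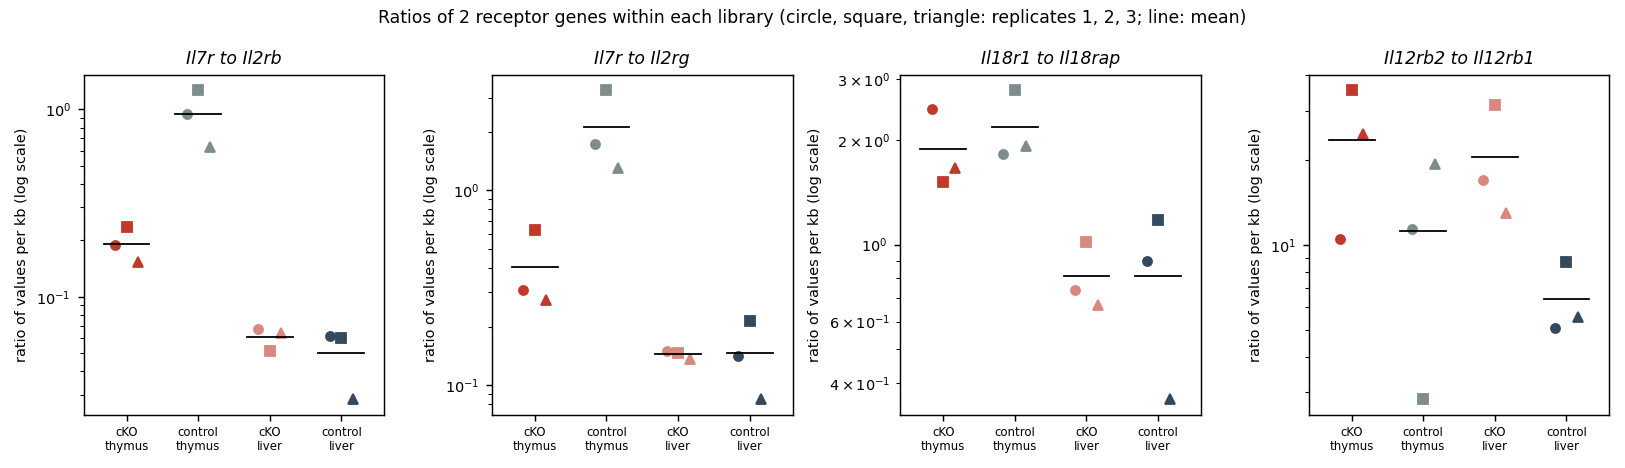
Ratios of 2 receptor genes per kilobase of exon within each library (log scale), by group, with the mean as a line. The Il7r to Il2rb ratio is 0.153 to 0.235 in cKO thymus and 0.627 to 1.27 in control thymus, and the Il12rb2 to Il12rb1 ratio separates cKO liver from control liver.

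Profiles most like those of the called receptor genes were ranked by the mean absolute difference of centred log2 values over the 12 libraries, among 9740 genes. Those nearest to Il7r were Klrc2, an NK receptor gene (0.51), Il18r1 (0.52) and Ssh2, a cofilin phosphatase gene (0.56). Klrc2 averaged 1987 in cKO thymus and 4087.6 in control thymus, and 591.7 in cKO liver and 629.6 in control liver. The nearest to Il18r1 were Ssh2 (0.39), Klrc2 (0.45) and Dusp2, a MAP kinase phosphatase gene (0.48). Il2rb was nearest to Tmx3 (0.12), Cd53 (0.18) and Clip1 (0.18), and Il18rap to Zfp652 (0.18), Zfp36l1 (0.20) and Sbno1 (0.21).

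Downstream of the receptors, called changes fell on the kinase of the common gamma chain, on the STAT of the IL-12 receptor and on a feedback inhibitor. Jak3, the kinase bound to Il2rg, had 808.9, 561.6 and 285.1 in cKO thymus, against 5100.6, 5445.2 and 1420.2 in control thymus. In liver Jak3 had 494.9, 920.6 and 534.7 in cKO cells, against 1447.6, 2329.2 and 2222.6 in control cells. The genotypes did not overlap in either tissue, and over both Jak3 fell by 2.20 on the log2 scale in cKO cells (SE 0.41, limma adjusted p = 0.0068). In thymus alone the log2 fold change was -2.75 ± 0.58 (limma adjusted p = 0.038), a call that was kept without control thymus replicate 3 and lost without any other single library (-3.09 to -2.33, limma adjusted p of 0.054 to 0.15). The Jak3 thymus call was also lost without control thymus replicates 1 and 2 together (-1.49, limma adjusted p = 0.62), with the thymus groups fitted alone (-2.75, 0.66), with sample weights (-2.54, 0.17) and without both libraries under 5 M reads (-2.75, 0.12). In liver it was -1.65 ± 0.58 (limma adjusted p = 0.37). The call over both tissues was kept without any 1 library and lost without control thymus replicates 1 and 2 together or without both libraries under 5 M reads (-2.29 to -1.57, 0.051 to 0.092).

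Stat4, which relays the IL-12 signal, had 2394.9, 3143.5 and 2592.1 in cKO thymus, against 11773.1, 9190.8 and 5408.8 in control thymus. In liver Stat4 had 10117.4, 8395.1 and 7929.4 in cKO cells, against 9646.9, 8932.5 and 7661.7 in control cells. The thymus groups did not overlap and the liver groups did. The log2 fold changes of Stat4 were -1.64 ± 0.29 in thymus (limma adjusted p = 0.013) and 0.01 ± 0.29 in liver (adjusted p = 1), with a difference, liver minus thymus, of 1.64 ± 0.42 (adjusted p = 0.69). Stat4 was also higher in cKO liver than in cKO thymus (1.70 ± 0.29, limma adjusted p = 0.02), whereas in control cells, liver against thymus, it was at 0.06 ± 0.29 (adjusted p = 0.96). The thymus call of Stat4 was lost without control thymus replicate 1, cKO thymus replicate 1 or cKO thymus replicate 3 (-1.61 to -1.39, limma adjusted p of 0.055 to 0.068), and without control thymus replicates 1 and 2 together it was at -1.01 (adjusted p = 0.47), while both libraries under 5 M reads left out gave -1.64 (0.062). The thymus call was also lost with sample weights and with the thymus groups fitted alone. The tissue call was lost without any 1 of the 6 cKO libraries (1.6 to 1.81, limma adjusted p of 0.07 to 0.1) and without both libraries under 5 M reads (1.73, 0.14). Of the 10 kinase and STAT genes, 2 fell and 0 rose in cKO thymus, where 0.636% of all genes tested were called. In cKO liver 0 were called (2 at an unadjusted limma p under 0.05, 0 with edgeR and 0 with DESeq2), where 0.505% of all genes were. The medians of the 10 genes were -0.07 in thymus and -0.02 in liver. Jak1, the most abundant, averaged 24536.1 ± 208.3 in cKO thymus and 22735.3 ± 6722.1 in control thymus.

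Socs2, a cytokine-induced inhibitor of JAK-STAT signalling, had 2683.3, 2982.8 and 5243.4 in cKO thymus, against 404.7, 932.1 and 836.1 in control thymus. In liver Socs2 had 7243.1, 6314.9 and 5963.6 in cKO cells, against 4071.4, 3337.6 and 2774.5 in control cells. Every cKO library was above every control library of its tissue. Socs2 rose in cKO thymus by 2.35 ± 0.40 on the log2 scale (limma adjusted p = 0.0085) and over both tissues by 1.65 ± 0.28 (adjusted p = 0.0031), while in liver alone the log2 fold change of 0.95 ± 0.40 did not pass (adjusted p = 0.57). It was also higher in control liver than in control thymus (2.30 ± 0.40, limma adjusted p = 0.0082). The thymus call was lost without cKO thymus replicate 3 (2.05, adjusted p = 0.072), and the tissue call without control liver replicate 1 or 2 (2.16 to 2.30, adjusted p of 0.057 to 0.058). Without control thymus replicates 1 and 2 together Socs2 was at 2.05 in thymus (limma adjusted p = 0.13) and its tissue call was lost (limma adjusted p = 0.07). Leaving out both libraries under 5 M reads ended the Socs2 calls over both tissues (1.59, limma adjusted p = 0.053) and between control tissues (2.44, limma adjusted p = 0.083). With the groups fitted alone, the Socs2 calls in thymus and between control tissues were lost too.

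Ptpn6, the phosphatase SHP-1, had 4228.8, 3444.1 and 3828.6 in control liver, against 16256.1, 12080.5 and 10408.8 in control thymus. It was lower in liver by -1.73 ± 0.33 on the log2 scale (limma adjusted p = 0.015), a call lost without control thymus replicate 1 or any 1 control liver library (-1.81 to -1.55, adjusted p of 0.054 to 0.099) and without control thymus replicates 1 and 2 together (-1.45, adjusted p = 0.34), and lost without both libraries under 5 M reads (limma adjusted p = 0.1). The Ptpn6 call was also lost with the control groups fitted alone. Of the 12 inhibitor genes, 1 rose and 0 fell in cKO thymus with limma (median -0.15; 1 with edgeR and 2 with DESeq2), 0 were called in cKO liver (median -0.10; 1 at an unadjusted p under 0.05, 0 with edgeR and 0 with DESeq2), and 1 was higher and 1 lower in control liver than in control thymus (2 with edgeR and 3 with DESeq2). Of all genes tested, limma called 0.636%, 0.505% and 0.605% in these comparisons, in that order. DESeq2 called 607 of all genes in thymus and 478 between control tissues. Of the 12 genes of the MyD88 branch, which IL-18 uses, 0 were called in any of the 6 comparisons with limma, edgeR or DESeq2 (at most 2 at an unadjusted limma p under 0.05), and the most abundant, Tab2, averaged 10183.3 ± 2641.1 in cKO thymus and 7095.7 ± 2469 in control thymus (limma adjusted p = 0.41).

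**Figure D4:**
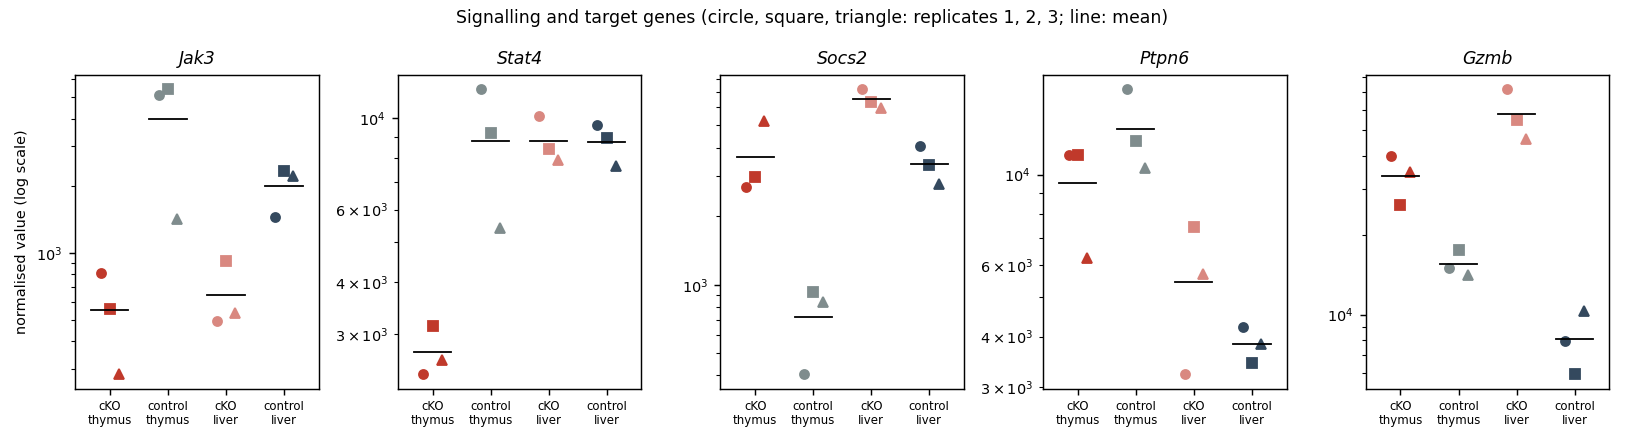
Normalised values (log scale) of genes that act with or downstream of the receptors, in the 3 libraries of each group, with the mean as a line. Jak3 is lower and Socs2 higher in every cKO library than in every control library of its tissue, and Stat4 in cKO thymus lies between 2394.9 and 3143.5, apart from all other groups.

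Among the ligands of these receptors, 5 of 11 genes were in the table, 3 were tested and 0 were called in any comparison with limma, edgeR or DESeq2 (at most 1 at an unadjusted limma p under 0.05). Il4, the most abundant of them, averaged 692.8 ± 377.3 in cKO thymus and 460.8 ± 135.3 in control thymus, and 1624.9 ± 86.82 in cKO liver and 899.5 ± 180.2 in control liver (limma adjusted p of 0.76 and 0.92). Of the 12 related receptor chains, 10 were tested and 0 called by the same tools (at most 1 at an unadjusted limma p under 0.05). Il27ra averaged 2245.5 ± 414.4 in cKO liver and 3436 ± 494 in control liver (log2 fold change -0.62 ± 0.38, limma adjusted p = 0.88).

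Of 17 target genes of these cytokines, 1 rose and 1 fell in cKO thymus (median 0.29), and 1 rose and 0 fell in cKO liver (median -0.10), with limma. Of all genes tested, limma called 0.636% in thymus and 0.505% in liver. DESeq2 on recovered reads called 4 of the 17 in thymus, where it called 607 of all genes, and 2 in liver. With edgeR 1 was called in each tissue. Gzmb, which encodes granzyme B, had 71895.9, 54843.2 and 46203.8 in cKO liver, against 7927, 5937.2 and 10278.7 in control liver. Its log2 fold change of 2.85 ± 0.23 in liver (limma adjusted p = 1.5e-06) passed under all 26 alternative settings. In thymus Gzmb rose by 1.09 ± 0.23 (limma adjusted p = 0.039), a call lost in 8 of the 12 fits without 1 library (0.96 to 1.18, adjusted p of 0.051 to 0.19). The Gzmb thymus call was also lost after TMM rescaling, with edgeR on recovered reads, with sample weights and with the thymus groups fitted alone. In all, 14 of the 26 alternative settings lost it. The gene that fell in thymus, Prf1, which encodes perforin, averaged 28.24 ± 13.8 in cKO thymus and 1172.3 ± 964 in control thymus (limma adjusted p = 0.033). That call was lost in 9 of the 12 fits without 1 library (adjusted p of 0.056 to 0.09), with sample weights and with the thymus groups fitted alone. Without control thymus replicates 1 and 2 together, both thymus calls were lost (limma adjusted p = 0.36 for each of Gzmb and Prf1), as they were without both libraries under 5 M reads (limma adjusted p = 0.098 for Gzmb and 0.13 for Prf1). The survival genes Bcl2 and Mcl1, targets of IL-7 and IL-15 signals, averaged 12602.4 ± 1070.7 and 8084.8 ± 1335.2 in cKO thymus, against 10353.9 ± 1195.8 and 10049.8 ± 3948.5 in control thymus (limma adjusted p of 0.61 and 0.73). Of 12 transcription regulators of receptor genes, Ets1 itself was the single gene called with limma in thymus or in liver, and Ikzf1 and Runx1 were not called in any comparison with limma.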

How the data were processed

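The authors deposited 1 table of normalised values per Ensembl gene, treated here as a non-negative signal. Per the submitters' processing notes, the tools included HTSeq 0.6.1 and STAR as well as TopHat2 2.1.0, DESeq2 and Trimmomatic 0.33, on mm10; which step each served, and whether counting was stranded, is not given. Whole reads were recovered from the steps of the deposited values (95.8% within 0.1 of a whole read) for depth and for edgeR 4.0.16 and DESeq2 1.42.0 as alternatives. Since the values are not whole counts, limma 3.58.1 (R 4.3.3) was fitted on log2(value + 1) to the 13058 genes with at least 10 in at least 3 libraries, with 4 group means, a variance trend and 1 spread estimate for all groups. P-values are two-sided, Benjamini-Hochberg adjusted over all genes tested, with a threshold of 0.05. Fold changes on this scale are understated for low genes. Symbols came from GENCODE M21 (13363 of 14004 identifiers) and promoters from RefSeq. The rule for names was all 10 receptor genes, called members of each related list with up to 2 others of highest mean, and the 3 nearest profiles of called receptor genes. Members and lists were chosen with earlier results of these data known. The 26 alternatives covered scaling, pseudocount, filter, tool, sample weights, replicate block and libraries left out.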

Additional observations from a re-analysis of the deposited data

Results flagged for a closer look

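Il2rb was higher in all cKO thymus libraries than in all control thymus libraries and lower in all cKO liver libraries than in all control liver libraries. The genotype effect in liver minus that in thymus was -1.01 on the log2 scale (SE 0.21), or -0.81 relative to the median of all genes tested. The test of that difference did not pass after adjustment (limma unadjusted p = 0.00015, adjusted p = 0.33), and over the alternatives the difference ranged between -1.22 and -0.73.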

How the results depend on the processing

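Across the 61 gene results and their alternatives, 1410 of 1571 values kept their direction and side of the threshold, 131 lost a call, 10 gained one and 20 changed sign, with 0 of the last past the threshold. The number of receptor genes called without 1 library ranged over 0 to 2 in thymus (cKO against control), 0 to 1 over both tissues, 0 to 2 in cKO liver against cKO thymus and 2 to 6 in control liver against control thymus. It was 0 in thymus with the groups alone, with sample weights and without control thymus replicates 1 and 2 together; this last setting gave 0 over both tissues and 1 between control tissues, where the groups alone and leaving out both libraries under 5 M reads gave 2 each. Sample weights gave 1 in liver (Il2rb, -0.60, limma adjusted p = 0.0027). Between cKO tissues the count was 2 with quantile normalization, the groups alone, sample weights and DESeq2, and 0 without both libraries under 5 M reads. The groups alone give no value over both tissues or for the difference of effects.

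With the replicate number as a block the count between cKO tissues was 2, Il18r1 being added (-1.72, limma adjusted p = 0.034), and no other count of receptor genes changed by over 1.5 times. Deviations from the group means correlated at -0.10 to 0.08 between libraries with the same number and at -0.11 to 0.19 between the others. Between cKO liver and control liver these values were 0.07 to 0.08 and -0.06 to -0.01. With 3 libraries per group, values this small cannot show whether libraries with the same number shared more than the number.

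Values that changed sign were all uncalled. Leaving out 1 library in turn moved the log2 fold change, cKO against control, between -1.69 and 2.53 for Il2ra, -0.57 and 0.63 for Il21r and -0.01 and 0.56 for Il12rb2 in thymus, and between -0.54 and 0.03 for Il7r, -0.17 and 0.41 for Il15ra and -0.19 and 0.86 for Il18r1 in liver. Without control thymus replicates 1 and 2 together, the thymus values were -2.42 for Il2ra, 0.45 for Il21r and 0.17 for Il12rb1, and Il2ra was at -0.10 in control liver against control thymus. In thymus, Il12rb2 was at -0.02 after TMM rescaling, Il21r at 0.01 after quantile normalization and 0.07 with sample weights, and Il2ra at -0.31 with sample weights, -0.88 with edgeR and -0.89 with DESeq2. Without both libraries under 5 M reads, the liver values were 0.15 for Il2ra, -0.13 for Il15ra and -0.32 for Il18r1. The causes were not tested. The number of all genes called, against 83 in thymus and 66 in liver, ranged over 0 (groups alone) to 607 (DESeq2) in thymus and 7 (without both libraries under 5 M reads) to 620 (sample weights) in liver; over both tissues (297) it ranged over 77 to 758, between control tissues (79) over 12 to 478, between cKO tissues (29) over 3 to 264 and for the difference of effects (1) over 1 to 114. TMM rescaling moved the median of all genes in thymus to -0.031, against 0.236 as deposited. In control thymus, Il2ra rested on 15 reads in replicate 1, and Il15ra on 17 and 11 reads in replicates 1 and 2, libraries of 25 and 27.7 M reads.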
